A study of Mus musculus with 9 samples.

Results

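Genes of purine and pyrimidine nucleotide metabolism were examined in 3T3-L1 cells that stayed undifferentiated or were taken through adipogenic induction with or without added lysine. The genes were 36 enzymes of de novo synthesis, salvage and breakdown, out of 54532 genes in the deposited tables. They were listed by symbol and not picked by value, although earlier results of these data were known. All 36 symbols occurred once in the tables. 3T3-L1 is an established mouse preadipocyte line, here maintained at confluence for 3 days before induction. Poly A RNA was measured in 9 libraries, 3 per group. Undifferentiated cells received no induction. Differentiated cells received insulin (10 μg/mL), rosiglitazone (1 μM), dexamethasone (1 μM) and the phosphodiesterase inhibitor IBMX (0.5 mM) in medium with lysine. Lysfree cells received the same inducers in medium to which no lysine was added, while serum was present in every medium. The Undifferentiated group therefore differed from both others in the inducers and in the medium as a whole, and only Lysfree against Differentiated compared lysine alone. Nothing in the labels said whether replicates were separate cultures, so p-values measured the spread between these libraries, which may be technical.

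Purine nucleotides are built stepwise on phosphoribosyl pyrophosphate (PRPP) to inosine monophosphate (IMP), from which AMP and GMP branch off, whereas the pyrimidine ring is closed first and joined to PRPP later. Salvage enzymes return free bases and nucleosides to the nucleotide pool, and breakdown enzymes deaminate and cleave them to uric acid or to small amino acids. Cells that grow draw on these pathways for RNA, DNA, nucleotide sugars and phospholipid precursors, and adipose cells are known to express xanthine dehydrogenase.

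Library totals ranged from 15880144 to 21806693 counts. The library Lysfree 1 stood apart from the other two Lysfree libraries, with a chi-square per degree of freedom over genes of 43.3 and 44.4 against them, compared with 2.76 between those 2 and 2.97 to 12.3 within the other groups. Of 31 nucleotide genes with at least 20 counts in every library, 9 deviated in Lysfree 1 by over 1.25 times or under 0.8 times from the mean of the other two, against 0 or 1 in each of the other 8 libraries. The cell type was checked on marker lists. Summed FPKM (a level per gene length and library depth) of 11 preadipocyte and fibroblast markers was 5807 to 6289 in Undifferentiated, 1429 to 1437 in Differentiated and 2735 to 2797 in Lysfree, and that of 12 adipocyte markers was 413 to 532, 7170 to 7500 and 303 to 417. Among leukocyte markers, Adgre1 and Itgam were at 0 in all libraries and Ptprc had 1 count in all, while the list sums of 9.07 to 22.6 FPKM came mainly from Lyz2, Cd14 and Cd68. Lyz2 fell after induction (log2 -4.24 in Differentiated and -1.88 in Lysfree) and Cd68 rose (log2 1.29 and 1.46), and their part in the results was not tested. Of 10 endothelial, epithelial and muscle markers, Epcam and Myod1 were at 0 and the list sum was at most 1.80 FPKM. In bulk RNA, fewer cells of a type and less RNA per cell cannot be told apart.

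More nucleotide genes were higher than lower after induction in either medium. In Differentiated against Undifferentiated, 25 of 36 genes (69.4%) passed the test (adjusted p under 0.05, edgeR quasi-likelihood test over all genes with a count) with a higher level, where 23% of all 24402 tested genes did, and 7 (19.4%) passed with a lower level, where 23.2% did. Differentially expressed genes (DEGs), which also had at least a 2-fold change, numbered 9 higher and 3 lower, against backgrounds of 10.4% and 11.4%. In Lysfree against Undifferentiated, 35 genes could be tested, of which 22 passed higher (62.9%) and 5 lower (14.3%), with backgrounds of 18% and 17.1%. DEGs there were 10 higher and 3 lower, with backgrounds of 5.52% and 8.76%. The authors had already reported purine and pyrimidine metabolism as upregulated in this comparison of the same libraries. The excess of higher genes is therefore not independent of their report. The background held many genes with few counts. Among the 13869 genes that passed the filterByExpr count filter, 37.4% were higher in Differentiated than in Undifferentiated, as were 25 of 35 nucleotide genes. Among 13648 such genes, 28.8% were higher in Lysfree than in Undifferentiated, as were 23 of 35 nucleotide genes.

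In the lysine contrast, genes passed in both directions. In Lysfree against Differentiated, 17 of 36 passed higher (47.2%) and 11 passed lower (30.6%), with backgrounds of 19.7% and 18.8%. DEGs were 5 higher and 8 lower, with backgrounds of 8.14% and 10.5%. The median log2 fold change over the genes was 0.67 for Differentiated against Undifferentiated, 0.78 for Lysfree against Undifferentiated and 0.22 for Lysfree against Differentiated, where the medians over all tested genes were 0.02, -0.02 and -0.06. Under the filterByExpr filter, 16 of 35 nucleotide genes were higher and 11 lower in Lysfree than in Differentiated, against 32.0% and 31.6% of 13617 genes. The number lower was thus near the share over those genes, and only the number higher was above it. Without Lysfree 1 the last comparison gave 17 higher and 13 lower, and its median was 0.16. These 3 comparisons share libraries, so they are not independent of each other. In all, 35 genes passed in at least 1 comparison and 23 were DEGs in at least 1. The exception was Dpyd, the enzyme that starts the reductive breakdown of uracil and thymine, with 1 count in Differentiated 3 and 0 in the other 8 libraries. Mean levels were highest in Lysfree for 17 genes, in Differentiated for 15 and in Undifferentiated for 3.

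**Figure D1:**
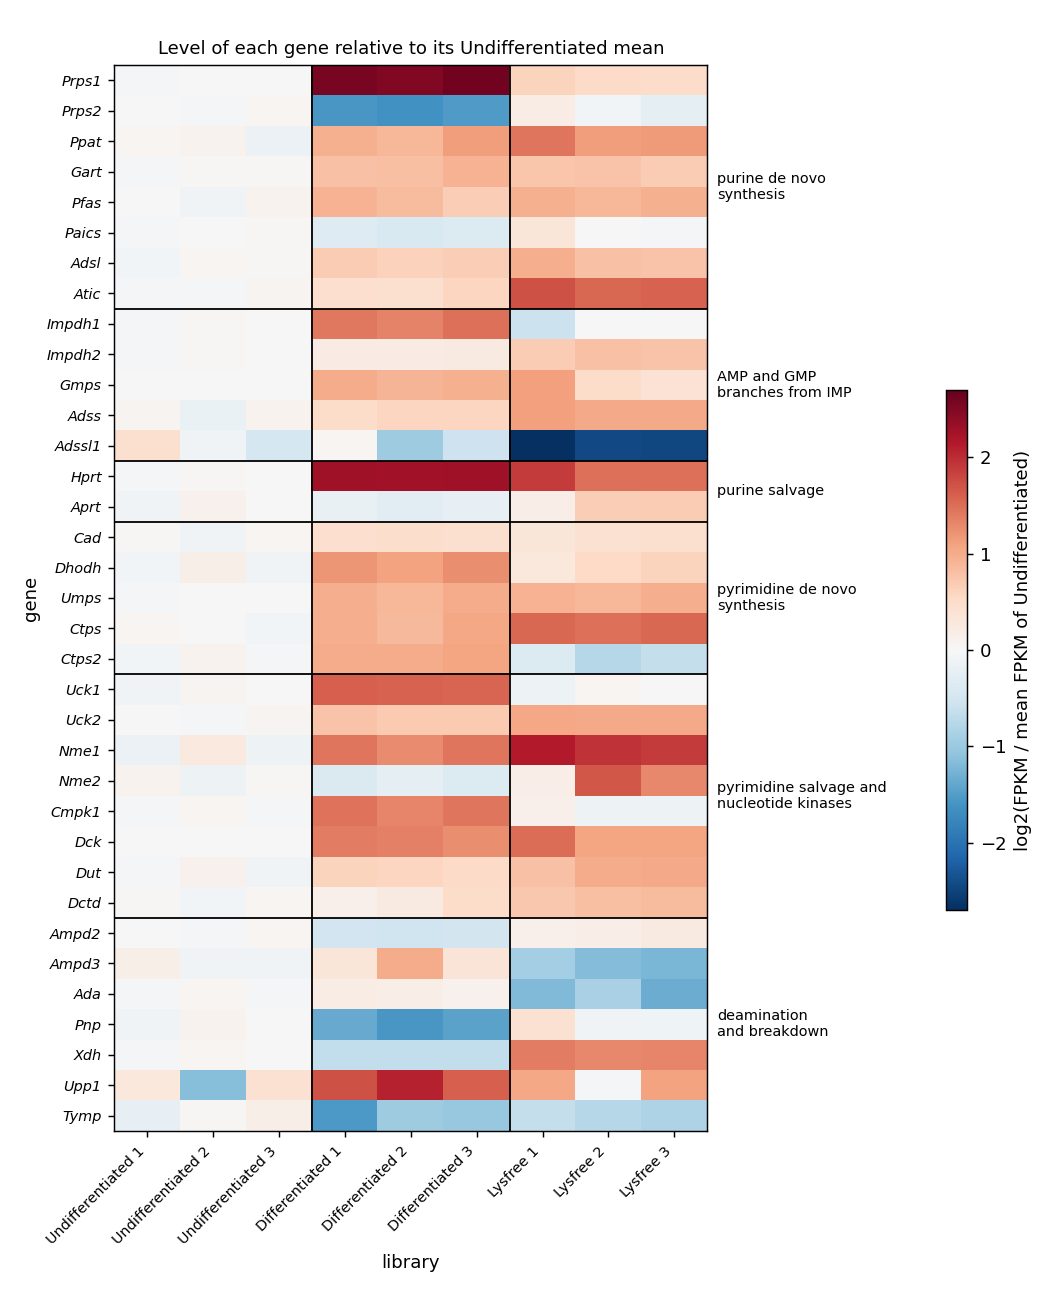
Heat map of 35 nucleotide metabolism genes (rows, grouped by role) in the 9 libraries (columns), coloured by the log2 ratio of each library's FPKM to the mean FPKM of the 3 Undifferentiated libraries. Red is higher and blue lower. Prps1 and Hprt were redder in Differentiated than in Lysfree, while Atic, Nme1 and Xdh were redder in Lysfree than in Differentiated. Lysfree 1 differed in shade from Lysfree 2 and 3 at Impdh1, Gmps and Hprt. Dpyd, with 1 count in all, was left out.

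Of the 8 genes that lead from ribose phosphate to IMP, 6 were higher and 2 lower in Differentiated than in Undifferentiated, against 23% and 23.2% of all tested genes, and 6 were higher and none lower in Lysfree than in Undifferentiated, against 18% and 17.1%. The median log2 fold change of the 8 was 0.72 and 0.84. PRPP synthetase, which makes the activated ribose for every nucleotide, is encoded by Prps1 and Prps2. Prps1 measured 13.7, 14.1 and 14.0 FPKM in Undifferentiated, 82.1, 78.7 and 85.3 in Differentiated and 21.1, 19.9 and 19.6 in Lysfree. The 3 groups did not overlap, and Prps1 was 5.78-fold higher in Differentiated than in Undifferentiated (log2 fold change 2.53 ± 0.07, SE), the largest rise of the 36 genes in that comparison on the deposited counts. It was 3.88-fold lower in Lysfree than in Differentiated (log2 -1.96 ± 0.09, adjusted p = 3.55e-13) and still above Undifferentiated (log2 0.58 ± 0.12). Prps2 went the other way, at 16.0, 15.1 and 16.3 FPKM in Undifferentiated, 5.36, 5.13 and 5.50 in Differentiated and 18.3, 14.9 and 13.3 in Lysfree. Prps2 fell in Differentiated (log2 -1.60 ± 0.08), while the Lysfree and Undifferentiated libraries overlapped (log2 0.02 ± 0.11, adjusted p = 0.928). Prps1 supplied 46.8% ± 1.19 (SD, n = 3) of the summed Prps1 and Prps2 FPKM in Undifferentiated, 93.9% ± 0.04 in Differentiated and 56.7% ± 3.00 in Lysfree.

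Reads of Prps1 may be split with Prps1l3, a related gene on chromosome 12 that held 41.4% to 47.6% of their joint counts in Undifferentiated and Lysfree libraries and at most 22.7% in Differentiated. With both summed, the log2 fold change was 2.02 in Differentiated against Undifferentiated and -1.50 in Lysfree against Differentiated. The former is below the 2.25 of Hprt, so the rank of Prps1 as the largest rise holds only for the counts as deposited.

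Ppat, the amidotransferase of the committed step of purine synthesis, lies head to head with Paics, the bifunctional enzyme of later ring steps. Ppat measured 5.29, 5.47 and 4.58 FPKM in Undifferentiated, 9.96, 9.56 and 11.2 in Differentiated and 13.9, 11.2 and 11.4 in Lysfree. All induced libraries were above all Undifferentiated ones, while the Differentiated and Lysfree ranges overlapped at 11.2. Ppat rose by log2 0.97 ± 0.08 in Differentiated and 1.29 ± 0.12 in Lysfree, and its difference between those media (log2 0.31 ± 0.11, adjusted p = 0.0324) was lost without Differentiated 1 (adjusted p = 0.119) or Differentiated 2 (adjusted p = 0.167), and was log2 0.18 (adjusted p = 0.0205) without Lysfree 1. That difference also did not pass with DESeq2 (adjusted p = 0.0748) or limma on log2(FPKM + 1) (adjusted p = 0.163). In edgeR it did not pass with RLE scaling (adjusted p = 0.0556) or filterByExpr (adjusted p = 0.0628). Paics, at 61.6 ± 1.63 FPKM in Undifferentiated, was lower in Differentiated at 47.2 ± 1.10 (log2 -0.41 ± 0.06) and stood at 66.1 ± 9.43 in Lysfree, where the test against Undifferentiated did not pass (log2 0.15 ± 0.10, adjusted p = 0.312). Ppat thus stood at 8.30% ± 0.92 of the Paics FPKM in Undifferentiated, 21.7% ± 1.67 in Differentiated and 18.4% ± 0.45 in Lysfree. The gene spans share 272 bases on opposite strands, and no strand setting was stated for the counting.

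Atic, which carries out the closing steps to IMP, had the largest rise of this role in Lysfree against Undifferentiated. It measured 14.8, 14.8 and 16.0 FPKM in Undifferentiated, 20.7, 20.6 and 22.8 in Differentiated and 50.4, 44.5 and 46.1 in Lysfree, with no overlap between groups. The rise was 3.19-fold over Undifferentiated (log2 1.67 ± 0.10) and 2.30-fold over Differentiated (log2 1.20 ± 0.09, adjusted p = 3.09e-10). Gart, a trifunctional enzyme, rose to about the same level in both media, from 12.0 ± 0.42 FPKM to 21.5 ± 1.31 and 19.9 ± 0.60, and the difference between media was log2 -0.05 ± 0.09. Pfas, the next amidotransferase, rose from 2.90 ± 0.20 FPKM to 5.15 ± 0.49 and 5.56 ± 0.13. Adsl, the lyase used both in ring synthesis and in the AMP branch, rose from 13.5 ± 0.60 FPKM to 21.3 ± 0.43 and 24.4 ± 2.04. Its difference between media (log2 0.26 ± 0.09, adjusted p = 0.0278) was lost when any 1 Differentiated library was left out (adjusted p = 0.0892, 0.115 and 0.0865), and was log2 0.17 with adjusted p = 0.00164 without Lysfree 1. That difference also did not pass with RLE scaling in edgeR (adjusted p = 0.0560) or limma on log2(FPKM + 1) (adjusted p = 0.0882). With at least 10 counts in every library its adjusted p in edgeR was 0.0520.

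Promoters were read for the letters of 4 regulatory motifs because several of these genes moved together. RefSeq promoters (GRCm38.p6, 250 bases before to 50 after the annotated start) were given for 33 of the 36 genes, and not for Pfas, Dhodh and Xdh. The E-box CACGTG, the core motif of Myc, Max and Usf proteins, was present in 5 of 33 genes (15.2%) and in 8.09% of all 27025 genes with a promoter. Stretches of up to 30 bases are shown 5′ to 3′ on the strand of the gene, with the motif in capitals. The E-box reads the same on both strands. Nme1 has 2 annotated starts, each with its own E-box.

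Paics: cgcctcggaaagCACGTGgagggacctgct
Atic: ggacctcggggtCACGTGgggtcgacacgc
Impdh2: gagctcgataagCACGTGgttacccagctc
Nme1, start nearer the gene's interior: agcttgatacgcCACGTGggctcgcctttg
Nme1, outer start: gctgcggggaacCACGTGaggccggggagc
Ampd3: ccagcagtgggtCACGTGtcagctctgtaa

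The Paics stretch (chr5:76951087-76951116, plus strand) begins its motif 203 bases before the Paics start and lies in an exon of Ppat. The Atic stretch (chr1:71557137-71557166, plus strand) places the motif 7 bases before the start. For Impdh2 (chr9:108560314-108560343, plus strand) the distance was 110 bases. For Nme1 (chr11:93968037-93968066 and chr11:93968273-93968302, minus strand) it was 29 and 18 bases, and for 1 of 3 Ampd3 starts (chr7:110772514-110772543, plus strand) 78 bases. Of these 5 genes, Atic, Impdh2 and Nme1 had their highest levels in Lysfree and were also higher in Differentiated than in Undifferentiated, Paics was lower in Differentiated, and Ampd3 fell in Lysfree, so the motif was found in genes of differing direction. In the GENCODE annotation of the same assembly, the Atic, Impdh2 and outer Nme1 stretches overlap an exon of their own gene. The Ppat window held no E-box.

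The cAMP response element TGACGTCA was present in 1 of 33 genes (3.03%) and in 2.03% of all genes. It also reads the same on both strands.

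Umps, cAMP response element: ggacttctgggTGACGTCAcgggccccaag

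The Umps stretch (chr16:33967017-33967046, minus strand) holds the motif just after the annotated start. A palindromic NRF1 motif was present in 2 of 33 genes (6.06%), Ctps and Uck1, and in 1.07% of all genes. The GC box GGGCGG, on either strand, was present in 27 of 33 genes (81.8%) and in 38.2% of all genes. A match describes letters in the window and is not a measured binding site.

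Beyond IMP, the GMP branch changed which of its dehydrogenase genes was in excess. IMP dehydrogenase, which limits the rate of guanine nucleotide synthesis, is encoded by Impdh1 and Impdh2. Impdh1 measured 21.4, 22.8 and 22.5 FPKM in Undifferentiated, 59.5, 56.1 and 61.9 in Differentiated and 14.9, 22.1 and 22.2 in Lysfree. Differentiated stood above every other library, and Lysfree 1 was the lowest of the 9. Impdh1 rose 2.61-fold in Differentiated (log2 1.38 ± 0.06) and was lower in Lysfree than in Differentiated (log2 -1.52 ± 0.12, adjusted p = 1.93e-09). Without Lysfree 1 the latter was log2 -1.37 ± 0.05. Impdh2 was 31.2 ± 0.87, 36.6 ± 0.14 and 52.5 ± 2.02 FPKM, and was higher in Lysfree than in both other groups (log2 0.80 ± 0.10 and 0.58 ± 0.09). Impdh1 gave 41.6% ± 0.19 of their summed FPKM in Undifferentiated, 61.8% ± 1.09 in Differentiated and 27.1% ± 3.67 in Lysfree. A processed copy, Impdh2-ps on chromosome 8, held 26.7% to 33.1% of the joint counts with Impdh2, and with both summed the log2 fold changes of Impdh2 were 0.74 and 0.55 in place of 0.80 and 0.58.

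Gmps, which aminates XMP to GMP, rose from 6.72 ± 0.10 FPKM to 13.1 ± 0.41 in Differentiated and to 14.4, 9.52 and 8.84 in the 3 Lysfree libraries. Lysfree 1 lay above all Differentiated libraries and the other two below them. The difference between media did not pass (log2 -0.20 ± 0.13, adjusted p = 0.282), whereas without Lysfree 1 it was log2 -0.46 ± 0.06 (adjusted p = 3.38e-16), and the rise over Undifferentiated was then log2 0.47 in place of 0.75. On the AMP side, Adss, adenylosuccinate synthase, measured 17.0, 14.4 and 17.4 FPKM in Undifferentiated, 23.1, 24.4 and 24.3 in Differentiated and 35.3, 32.8 and 33.1 in Lysfree. The groups did not overlap, and Adss rose by log2 0.53 ± 0.06 in Differentiated and 1.10 ± 0.10 in Lysfree. Adssl1, the isoform known from muscle, had low levels of 1.28, 0.89 and 0.69 FPKM in Undifferentiated, 0.99, 0.49 and 0.65 in Differentiated and 0.11, 0.18 and 0.17 in Lysfree. Lysfree lay below all other libraries on 4 to 7 counts per library, and Adssl1 fell by log2 -2.58 ± 0.41 against Undifferentiated. Between Differentiated and Undifferentiated it did not pass (adjusted p = 0.174), although it did without Differentiated 1 (log2 -0.79, adjusted p = 0.0445).

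The purine salvage genes Hprt and Aprt responded differently. Hprt, which returns hypoxanthine and guanine to IMP and GMP, measured 35.8, 37.7 and 37.4 FPKM in Undifferentiated, 179, 177 and 180 in Differentiated and 137, 104 and 104 in Lysfree. All 3 groups were apart, with Lysfree between the others and Lysfree 1 the highest in its group. The rise was 4.75-fold in Differentiated (log2 2.25 ± 0.06) and 3.22-fold in Lysfree (log2 1.69 ± 0.11, and 1.52 without Lysfree 1). Hprt was lower in Lysfree than in Differentiated (log2 -0.57 ± 0.10, adjusted p = 8.67e-05). It is often used as a reference gene for quantitative PCR. Aprt, which salvages adenine, was lower in Differentiated (48.5 ± 1.55 FPKM) than in Undifferentiated (56.8 ± 4.27), with log2 -0.26 ± 0.06. That fall did not pass in the edgeR fit to all 9 libraries (log2 -0.25, adjusted p = 0.0553). In Lysfree Aprt was 64.5, 89.7 and 91.2 FPKM, above both other groups (log2 0.57 ± 0.12 against Undifferentiated and 0.82 ± 0.12 against Differentiated), and without Lysfree 1 these were 0.69 and 0.95. The rise over Undifferentiated did not pass with limma on log2(FPKM + 1) (adjusted p = 0.0505).

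**Figure D2:**
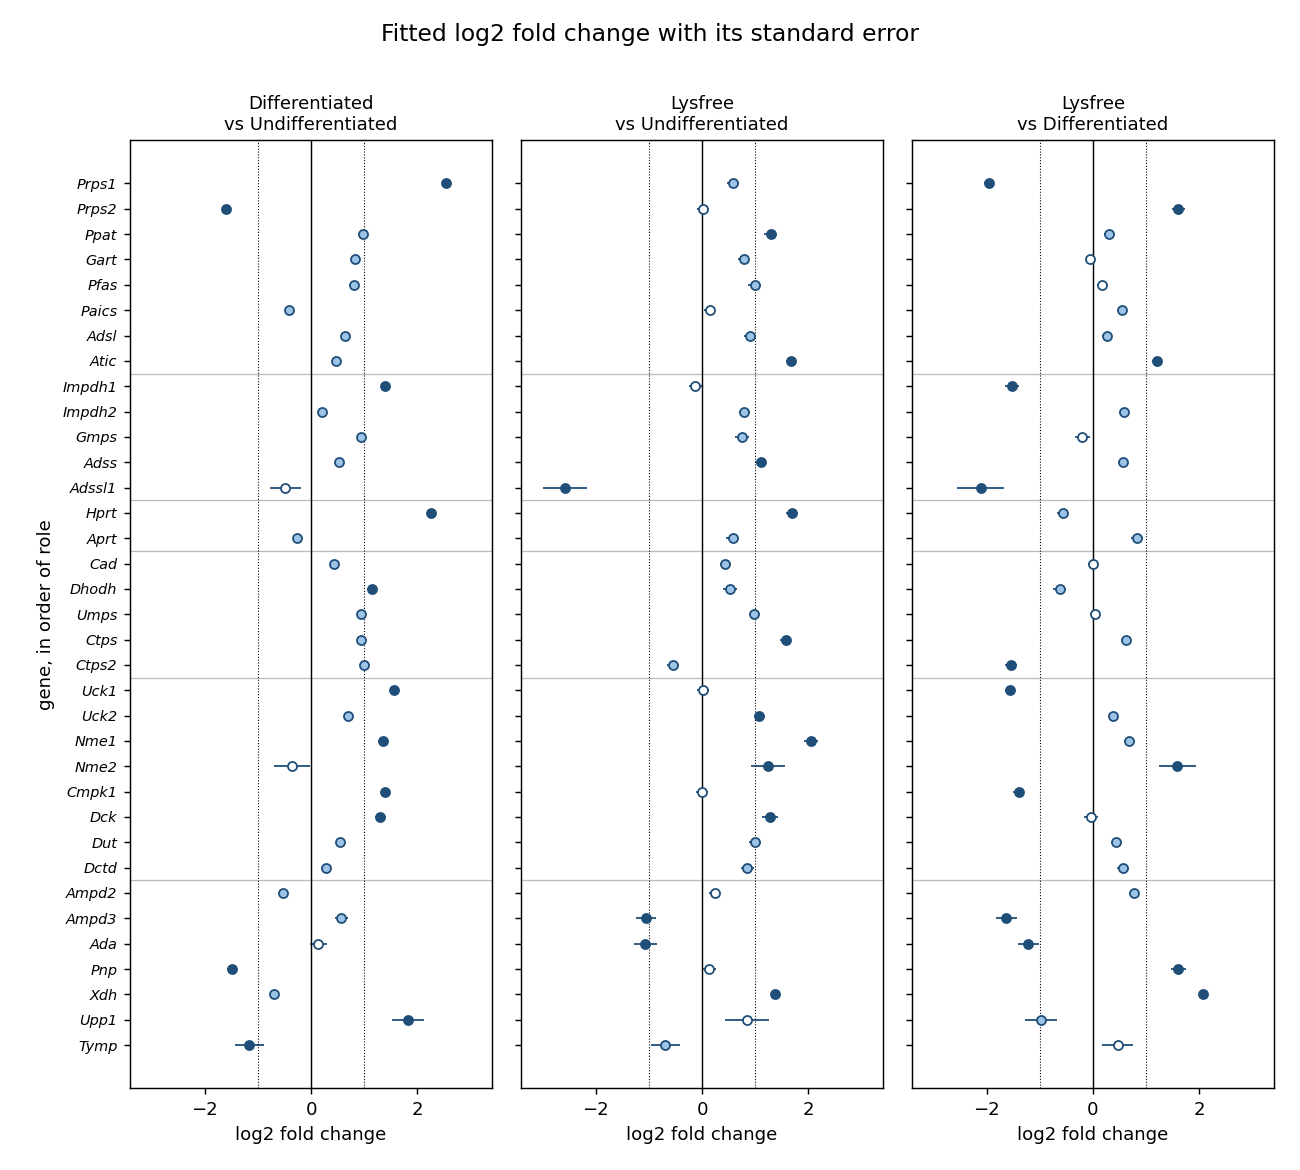
Fitted log2 fold change (x axis) with its standard error for 35 nucleotide metabolism genes (y axis, in order of role) in each pairwise comparison. Dark points are DEGs, light points passed the test with under a 2-fold change, and open points did not pass. Dotted lines mark a 2-fold change in either direction. Prps1, Impdh1, Uck1 and Cmpk1 lay to the right in Differentiated against Undifferentiated and to the left in Lysfree against Differentiated.

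All 5 genes of pyrimidine de novo synthesis rose in Differentiated, where 23% of all tested genes did, with log2 fold changes from 0.43 to 1.14. Cad, the trifunctional enzyme that starts the pathway, rose from 10.4 ± 0.56 FPKM to 14.3 ± 0.18 in Differentiated and 13.7 ± 0.53 in Lysfree, and the difference between media was log2 0.00 ± 0.09. Umps, which ends the pathway at uridine monophosphate, rose from 11.4 ± 0.22 FPKM to 22.1 ± 0.82 and 21.8 ± 0.53, again with a small difference between media (log2 0.04 ± 0.09). Dhodh, the step on the inner mitochondrial membrane, measured 2.76, 3.24 and 2.69 FPKM in Undifferentiated, 6.61, 6.11 and 6.88 in Differentiated and 3.55, 4.21 and 4.37 in Lysfree. Every Lysfree library lay between the other groups. Dhodh rose by log2 1.14 ± 0.09 in Differentiated and was lower in Lysfree than there (log2 -0.62 ± 0.12, adjusted p = 0.000166).

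CTP synthase, which makes cytidine from uridine nucleotides, is encoded by Ctps and Ctps2, and these went in opposite directions without lysine. Ctps measured 13.3, 12.9 and 12.0 FPKM in Undifferentiated, 25.0, 23.3 and 26.4 in Differentiated and 37.5, 35.5 and 37.2 in Lysfree, in that order without overlap. Its log2 fold change was 0.94 ± 0.07 in Differentiated, 1.58 ± 0.10 in Lysfree and 0.63 ± 0.09 between them. Ctps2 measured 13.1, 14.8 and 13.6 FPKM in Undifferentiated, 27.5, 27.7 and 28.8 in Differentiated and 10.7, 8.14 and 8.85 in Lysfree. It was highest in Differentiated and lowest in Lysfree, with no overlap, and its log2 fold change between those was -1.54 ± 0.10 (adjusted p = 1.07e-10). The share of Ctps in the summed FPKM was 47.9% ± 2.07 in Undifferentiated, 47.0% ± 1.17 in Differentiated and 80.0% ± 1.87 in Lysfree.

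Nucleoside and nucleotide kinases showed a similar split between genes. Uck1 and Uck2 encode uridine-cytidine kinases. Uck1 measured 19.2, 21.6 and 20.4 FPKM in Undifferentiated, 62.1, 61.7 and 60.9 in Differentiated and 18.5, 21.2 and 20.5 in Lysfree. The Lysfree and Undifferentiated ranges overlapped (log2 0.02 ± 0.11, adjusted p = 0.900), and Differentiated was 2.96-fold above Undifferentiated. Uck2 measured 21.2, 20.6 and 22.5 FPKM in Undifferentiated, 36.6, 34.8 and 35.0 in Differentiated and 43.9, 43.8 and 43.8 in Lysfree, in that order without overlap (log2 0.70 ± 0.06 and 1.08 ± 0.10 against Undifferentiated). Uck1 gave 48.8% ± 2.13 of the sum in Undifferentiated, 63.5% ± 0.48 in Differentiated and 31.4% ± 1.52 in Lysfree. Cmpk1, the UMP and CMP kinase, followed Uck1, at 19.0, 20.1 and 18.8 FPKM in Undifferentiated, 53.6, 48.1 and 52.9 in Differentiated and 21.2, 17.6 and 17.5 in Lysfree. Its log2 fold change was 1.39 ± 0.06 in Differentiated and 0.00 ± 0.11 in Lysfree against Undifferentiated, where the ranges overlapped.

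**Figure D3:**
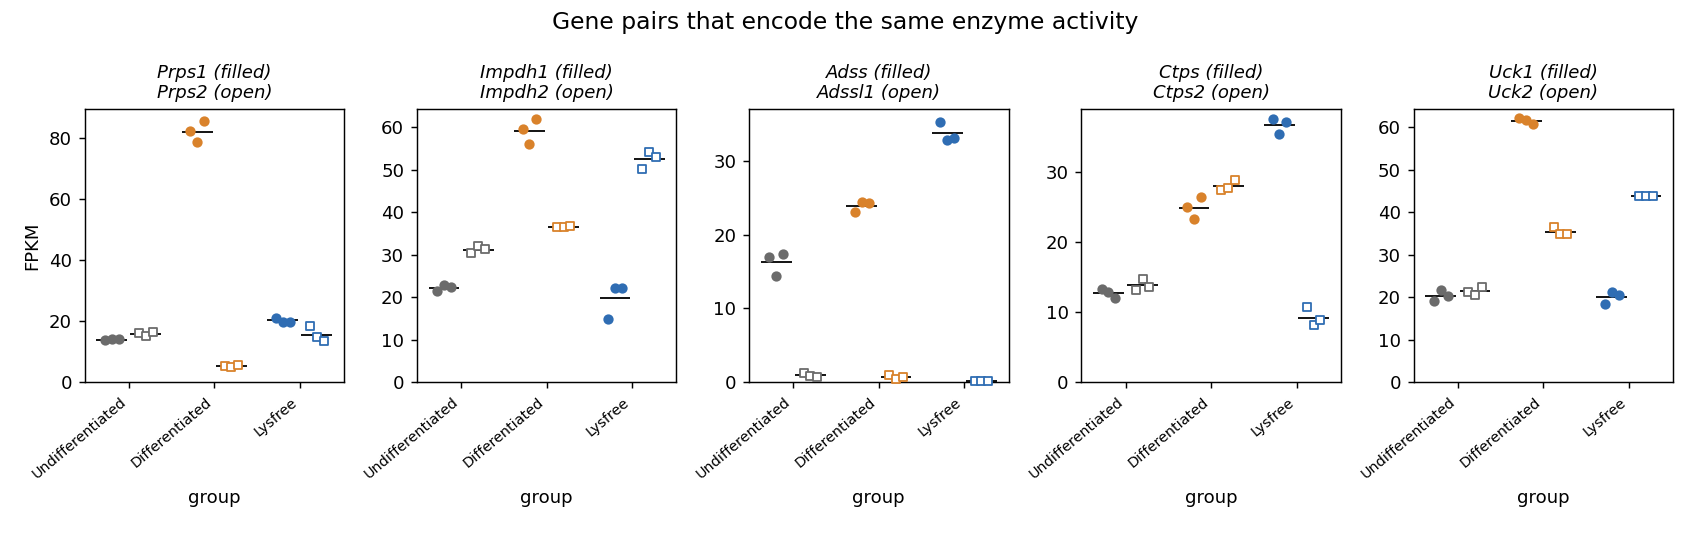
FPKM (y axis, from 0) of 5 gene pairs that encode the same enzyme activity, in the 3 libraries of each group (x axis), with filled circles for the first gene, open squares for the second and black bars for the group mean. The first gene exceeded the second in Differentiated for Prps, Impdh, Adss and Uck, and in Lysfree the second exceeded the first for Impdh and Uck. The pairs were set side by side after their values were seen and the difference within a pair was not tested.

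Nme1, a nucleoside diphosphate kinase, had the largest rise of all 36 genes in Lysfree against Undifferentiated. It measured 4.66, 6.22 and 4.75 FPKM in Undifferentiated, 14.1, 12.6 and 14.1 in Differentiated and 23.1, 20.1 and 19.4 in Lysfree. The 3 groups did not overlap, and the rise was 2.55-fold in Differentiated (log2 1.35 ± 0.09) and 4.13-fold in Lysfree (log2 2.05 ± 0.13), with log2 0.68 ± 0.10 between media. Its neighbour and close relative Nme2 was far lower, at 1.24, 1.05 and 1.17 FPKM in Undifferentiated, 0.88, 0.96 and 0.90 in Differentiated and 1.31, 3.72 and 2.86 in Lysfree, on 16 to 83 counts per library. The Lysfree libraries differed among themselves, with Lysfree 1 near Undifferentiated, and Nme2 passed as higher in Lysfree than in Undifferentiated (log2 1.24 ± 0.32, adjusted p = 0.00198) and Differentiated (log2 1.59 ± 0.34, adjusted p = 0.000706). With limma the adjusted p against Undifferentiated was 0.113 on log2(FPKM + 1) and 0.0911 on log2(FPKM + 0.1), and against Differentiated 0.0533 on log2(FPKM + 1). Reads of these relatives may be split between them, and with both summed the log2 fold changes of Nme1 were 1.28, 2.00 and 0.71. Gm20390, on the same strand, shares 11315 bases of span with Nme1 and 6441 with Nme2, and held 1 count in all libraries. How reads in the shared spans were assigned was not tested, so both levels may be too low.

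The remaining genes of this role, Dck, Dut and Dctd, act on deoxynucleosides or deoxynucleotides. Dck, deoxycytidine kinase, measured 2.47, 2.47 and 2.49 FPKM in Undifferentiated, 6.48, 6.36 and 5.88 in Differentiated and 7.06, 5.16 and 5.21 in Lysfree, so that both induced groups lay above Undifferentiated and overlapped each other. The rise was log2 1.30 ± 0.11 and 1.27 ± 0.15. Between media Dck did not pass (log2 -0.04 ± 0.13, adjusted p = 0.827), and without Lysfree 1 it did (log2 -0.22, adjusted p = 0.0464). Dut, which removes dUTP before it can enter DNA, rose from 15.3 ± 1.24 FPKM to 22.6 ± 0.62 and 29.3 ± 2.59, and was higher in Lysfree than in Differentiated (log2 0.44 ± 0.10). Dctd, dCMP deaminase, was 6.31 ± 0.31, 7.79 ± 0.99 and 11.0 ± 0.54 FPKM. Its rise in Lysfree was log2 0.85 ± 0.12, and the smaller rise in Differentiated (log2 0.28 ± 0.09) was lost without Differentiated 3 (log2 0.17, adjusted p = 0.201).

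Of the 8 deamination and breakdown genes, 2 were higher (Upp1 and Ampd3) and 4 lower (Pnp, Tymp, Xdh and Ampd2) in Differentiated than in Undifferentiated, against 23% and 23.2% of all tested genes, and the median log2 fold change was -0.20. In Lysfree against Undifferentiated, 1 of 7 tested was higher and 3 lower, against 18% and 17.1%. Against Differentiated 3 of 8 were higher and 3 lower, against 19.7% and 18.8%. Under filterByExpr the shares over all genes were 37.4% and 38.0%, 28.8% and 29.5%, and 32.0% and 31.6% in the same order of comparisons. The counts in Lysfree against Differentiated were thus near the filtered shares. Summed FPKM of the 8 genes was 75.3 to 78.7 in Undifferentiated, 51.3 to 52.4 in Differentiated and 133 to 141 in Lysfree. Xdh was the largest single part in each group. Xanthine dehydrogenase, encoded by Xdh, oxidises hypoxanthine and xanthine to uric acid. It measured 37.5, 39.9 and 38.2 FPKM in Undifferentiated, 24.1, 24.2 and 24.3 in Differentiated and 100, 94.8 and 96.4 in Lysfree. The groups did not overlap. Xdh fell in Differentiated (log2 -0.70 ± 0.05) and rose in Lysfree, 2.60-fold over Undifferentiated (log2 1.38 ± 0.09) and 4.19-fold over Differentiated (log2 2.07 ± 0.08, adjusted p = 1.26e-14), the largest lysine difference upward among the 36 genes.

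Pnp, which releases hypoxanthine and guanine from their nucleosides, measured 8.59, 9.90 and 9.15 FPKM in Undifferentiated, 3.59, 3.10 and 3.39 in Differentiated and 12.2, 8.64 and 8.51 in Lysfree. It fell 2.80-fold in Differentiated (log2 -1.48 ± 0.09), while the Lysfree and Undifferentiated ranges overlapped (log2 0.13 ± 0.13, and -0.08 without Lysfree 1). Its difference between media was log2 1.60 ± 0.14, and 1.40 without Lysfree 1. Gm49342, with 4 counts in all libraries, shares 18620 bases of span with Pnp on the same strand. Ampd2, the widely expressed AMP deaminase, was 22.9 ± 0.68, 16.1 ± 0.23 and 26.1 ± 1.03 FPKM, lower in Differentiated than in Undifferentiated (log2 -0.53 ± 0.06) and higher in Lysfree than in Differentiated (log2 0.76 ± 0.09). Against Undifferentiated it did not pass in Lysfree (log2 0.24 ± 0.10, adjusted p = 0.0577) but did without Lysfree 1 (log2 0.24, adjusted p = 0.000504).

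Ampd3 and Ada, which deaminate AMP and adenosine, were low and were lowest in Lysfree. Ampd3 measured 1.80, 1.52 and 1.52 FPKM in Undifferentiated, 2.01, 3.21 and 2.06 in Differentiated and 0.86, 0.72 and 0.69 in Lysfree. Differentiated 2 was well above its fellows, and without it the rise over Undifferentiated (log2 0.57 ± 0.12) became log2 0.31 (adjusted p = 0.0825). The fall in Lysfree against Undifferentiated was log2 -1.05 ± 0.19 and against Differentiated -1.63 ± 0.20. The gene shares 11974 bases of its span with Rnf141 on the opposite strand. Ada measured 3.12, 3.30 and 3.09 FPKM in Undifferentiated, 3.65, 3.59 and 3.43 in Differentiated and 1.39, 1.73 and 1.26 in Lysfree. Lysfree lay below all others (log2 -1.07 ± 0.21 and -1.22 ± 0.20), and Differentiated against Undifferentiated did not pass (log2 0.14 ± 0.16, adjusted p = 0.498).

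The pyrimidine phosphorylases were near the limit of these libraries. Upp1, uridine phosphorylase, measured 0.50, 0.19 and 0.54 FPKM in Undifferentiated, 1.35, 1.72 and 1.26 in Differentiated and 0.84, 0.40 and 0.87 in Lysfree, on 8 to 63 counts per library. Differentiated lay above all other libraries (log2 1.82 ± 0.31 against Undifferentiated), and Undifferentiated and Lysfree overlapped (log2 0.84 ± 0.41, adjusted p = 0.120). That difference passed without Lysfree 2 (log2 1.12, adjusted p = 0.0226). The lower level of Upp1 in Lysfree than in Differentiated (log2 -0.98 ± 0.30, adjusted p = 0.0130) did not pass without Lysfree 2 (adjusted p = 0.0731) or Differentiated 2 (adjusted p = 0.0936). Tymp, thymidine phosphorylase, measured 1.27, 1.52 and 1.66 FPKM in Undifferentiated, 0.51, 0.76 and 0.73 in Differentiated and 0.95, 0.88 and 0.83 in Lysfree, with no overlap. It fell in Differentiated (log2 -1.16 ± 0.27), and between media it did not pass (log2 0.46 ± 0.30, adjusted p = 0.255). The fall in Lysfree against Undifferentiated (log2 -0.69 ± 0.27, adjusted p = 0.0420) was lost without Undifferentiated 2 (adjusted p = 0.0984), Undifferentiated 3 (adjusted p = 0.137), Lysfree 2 (adjusted p = 0.0842) or Lysfree 3 (adjusted p = 0.106). That fall also did not pass with DESeq2 (adjusted p = 0.0522) or with library sizes alone in edgeR (adjusted p = 0.0535). Tymp held 347 counts in all 9 libraries and overlaps Ncaph2, with 21449 counts, on the opposite strand. It also shares 1916 bases of span with Sco2, with 0 counts, on the same strand.

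**Figure D4:**
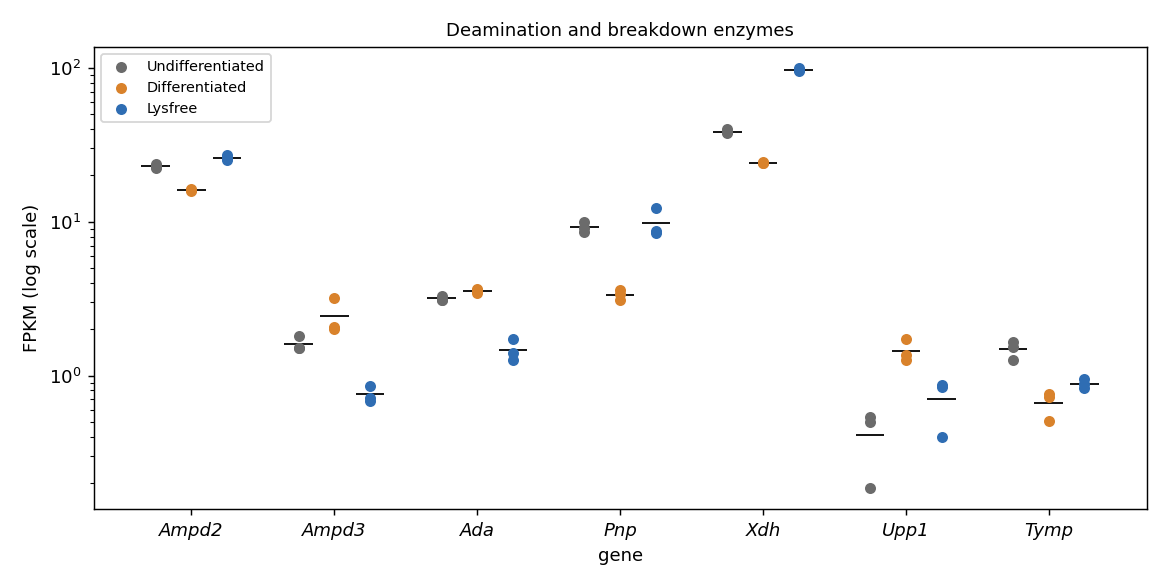
FPKM (y axis, log scale) of 7 deamination and breakdown genes (x axis), with 1 point per library, coloured by group, and black bars for the group mean. Xdh, Pnp and Ampd2 were lowest in Differentiated, and Ampd3 and Ada were lowest in Lysfree.

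Other genes of nucleotide metabolism were divided in direction. Of 62 tested, 27 were higher (43.5%) and 19 lower (30.6%) in Differentiated than in Undifferentiated, where 23% and 23.2% of all tested genes were, or 37.4% and 38.0% under filterByExpr. Of 60, 25 were higher (41.7%) and 13 lower (21.7%) in Lysfree than in Undifferentiated, against 18% and 17.1%, or 28.8% and 29.5% under filterByExpr. Of 62, 17 were higher (27.4%) and 21 lower (33.9%) in Lysfree than in Differentiated, against 19.7% and 18.8%, or 32.0% and 31.6% under filterByExpr. Ak4, a mitochondrial adenylate kinase, had mean levels of 2.90, 27.9 and 11.5 FPKM in Undifferentiated, Differentiated and Lysfree, and Rrm2, the small subunit of ribonucleotide reductase, 8.91, 47.7 and 24.8. Tk1, the thymidine kinase of S phase, was 2.38, 12.4 and 1.29 FPKM, and was 3.19 lower on the log2 scale in Lysfree than in Differentiated (log2 -3.19 ± 0.13). Cda, cytidine deaminase (0.76, 5.67 and 0.34 FPKM), and Gmpr, which returns GMP to IMP (3.64, 8.63 and 0.92 FPKM), were also highest in Differentiated.

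A further set stood higher without lysine. Uprt, named for uracil phosphoribosyltransferase, was 6.11, 4.92 and 20.5 FPKM in the order Undifferentiated, Differentiated and Lysfree, and the nucleoside transporter Slc29a1 was 44.0, 18.9 and 56.9 FPKM. Against Differentiated these were log2 2.12 ± 0.12 and 1.65 ± 0.09, and Ak5, on a mean of 1.52 CPM (counts scaled to library size), log2 2.85 ± 0.37. Lower in both Differentiated and Lysfree than in Undifferentiated were Ak1, a cytosolic adenylate kinase, at 63.9, 24.8 and 45.9 FPKM, Nme4, a mitochondrial relative of Nme1, at 15.8, 5.84 and 6.66 FPKM, Upp2 at 0.51, 0.12 and 0.11 FPKM, and Cmpk2, a mitochondrial nucleotide kinase known as interferon-inducible, at 7.19, 3.45 and 0.43 FPKM. Of these 4, Cmpk2 was also lower in Lysfree than in Differentiated, Ak1 was higher, and Nme4 and Upp2 did not pass.

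One-carbon enzymes, which provide formyl groups for purines and methylene groups for thymidylate, were counted in the same way. Of 12 genes, 9 were higher (75%) and 2 lower (16.7%) in Differentiated than in Undifferentiated, against 23% and 23.2% of all tested genes, and 8 were higher (66.7%) and 2 lower (16.7%) in Lysfree than in Undifferentiated, against 18% and 17.1%. Under filterByExpr these backgrounds were 37.4% and 38.0%, and 28.8% and 29.5%. In Lysfree against Differentiated 3 were higher (25%) and 4 lower (33.3%), against 19.7% and 18.8%, or 32.0% and 31.6% under filterByExpr. The mitochondrial enzymes Mthfd2 (32.1 ± 1.76, 112 ± 1.05 and 82.5 ± 3.22 FPKM) and Mthfd1l (7.75 ± 0.21, 28.4 ± 0.63 and 29.8 ± 0.20 FPKM) and the phosphoserine phosphatase Psph (6.47, 19.6 and 28.1 FPKM) rose in both media. Aldh1l2, the mitochondrial formyltetrahydrofolate dehydrogenase, was highest in Lysfree at 87.1 ± 3.86 FPKM against 32.0 ± 1.54 in Differentiated. Its cytosolic relative Aldh1l1 had 0 counts in all Lysfree libraries and was at least 21.6-fold lower there than in Differentiated, taking 3 counts per library as the floor. Shmt1, the cytosolic serine hydroxymethyltransferase, was 6.15, 14.2 and 4.92 FPKM.

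Of 13 regulators tested, 7 were higher and 2 lower in Differentiated than in Undifferentiated, against 23% and 23.2% of all tested genes. In Lysfree 7 were higher and 2 lower than in Undifferentiated, against 18% and 17.1%. Against Differentiated, 4 were higher (30.8%) and 6 lower (46.2%) in Lysfree, against 19.7% and 18.8%. No count was made of the genes these comparisons have in common. Under filterByExpr the shares over all genes were 37.4% and 38.0%, 28.8% and 29.5%, and 32.0% and 31.6% in the same order. The number higher in Lysfree than in Differentiated was thus near the filtered share. Among the regulators Myc, a transcription factor known to act on nucleotide synthesis genes, rose in both media. Myc measured 11.6, 11.3 and 10.8 FPKM in Undifferentiated, 62.5, 63.1 and 66.0 in Differentiated and 57.0, 62.4 and 65.0 in Lysfree (log2 2.48 ± 0.07 and 2.50 ± 0.11, with 0.01 ± 0.09 between media). E2f2 was 0.22, 2.62 and 0.50 FPKM, Mycl 0.14, 0.06 and 0.43 FPKM, and the Max partners Mxd1 and Mxi1 were 7.60 and 15.3 FPKM in Differentiated against 1.06 and 4.01 in Lysfree. Proliferation genes differed between the induced groups. Of 30, 28 were higher (93.3%) and none lower in Differentiated than in Undifferentiated, against 23% and 23.2% of all tested genes. In Lysfree 11 were higher (36.7%) and 5 lower (16.7%) than in Undifferentiated, against 18% and 17.1%, and 1 was higher (3.33%) and 23 lower (76.7%) than in Differentiated, against 19.7% and 18.8%. Under filterByExpr the Lysfree backgrounds were 28.8% and 29.5% against Undifferentiated and 32.0% and 31.6% against Differentiated. Summed FPKM of the proliferation genes was 199 to 202 in Undifferentiated, 402 to 422 in Differentiated and 237 to 242 in Lysfree. Aurka, Plk1 and Ccnb1 were 3.33, 4.03 and 3.45 FPKM in Undifferentiated and 19.5, 20.4 and 17.1 in Differentiated. Ccnb2 and Ccne1 were 14.8 and 25.7 FPKM in Differentiated against 1.45 and 4.42 in Lysfree. Mcm2 was the gene higher in Lysfree than in Differentiated (33.0 ± 2.21 against 15.2 ± 0.40 FPKM), and Gins1 was 2.17 FPKM in Undifferentiated and 4.26 in Lysfree. The part of proliferation, of adipocyte and fibroblast markers and of Myc in the levels of the nucleotide genes was not tested.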

How the data were processed

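The authors enriched poly A RNA, sequenced paired ends, removed adaptor and low-quality reads and mapped the rest to mm10 with HISAT2. The submitters' processing notes name HISAT2 2.0.5 and featureCounts 1.5.0-p3, and the strand setting is not given in the sources used here. The deposited tables hold whole-number read counts per gene and the authors' FPKM values for 9 libraries of 15880144 to 21806693 counts. Levels are deposited FPKM as mean ± SD (n = 3) and were not tested. Groups were compared pairwise on the deposited counts with edgeR 4.0.16 (R 4.3.3; TMM, quasi-likelihood test) over every gene counted at least once in the 6 libraries compared, with Benjamini-Hochberg adjustment over all of them. A DEG had an adjusted p under 0.05 and at least a 2-fold change. Log2 fold changes are given ± SE. The edgeR, DESeq2 and limma steps were tested on simulated data: for Lysfree against Differentiated, edgeR recovered 97 of 100 genes changed 2-fold and 100 of 100 changed 4-fold among 24130, with 8 false calls. DESeq2 recovered 90 and 99 with 6 false calls, and limma on log2(FPKM + 1) recovered 62 and 96 with 18. The simulation gave every gene the same dispersion and changed no genes with few counts. No simulated library stood apart as Lysfree 1 did, so these figures do not give the recovery or false calls in the real data.

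The genes and lists were chosen with earlier results of these data known, so counts are described beside the shares over all tested genes. All 36 genes were named by role, and DEGs among them in every library. From the lists of other nucleotide, one-carbon, regulator and proliferation genes, the 3 largest rises and 3 largest falls per comparison were named, restricted to DEGs whose mean reached 1 CPM (counts scaled to library size). Promoter sequences are from RefSeq (GRCm38.p6). Alternatives were other scalings and count filters, DESeq2 1.42.0, limma 3.58.1 on log2(FPKM + 1) and log2(FPKM + 0.1), 1 fit to all libraries, a replicate block, leaving out each library and, chosen after seeing the data, summing near-identical copies. One marker gene is not reported here.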

Additional observations from a re-analysis of the deposited data

How the results depend on the processing

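Across the alternatives, 1607 log2 fold changes of single nucleotide genes were recomputed. None that passed the test changed sign, 36 lost and 10 gained the test's threshold, and these belonged to 12 genes, most often Ppat and Adsl in Lysfree against Differentiated and Tymp and Ampd2 in Lysfree against Undifferentiated. Of 225 recomputed counts and medians, 206 stayed within 1.5 times the reported count or within the replicate spread of the reported median. The median of Differentiated against Undifferentiated (0.67) became 0.63 with library sizes alone, 0.63 with filterByExpr, 0.59 with at least 10 counts in every library, 0.58 with limma on log2(FPKM + 1) and 0.61 on log2(FPKM + 0.1), and ranged from 0.67 to 0.70 with 1 library left out. The median of Lysfree against Undifferentiated (0.78) became 0.72 with at least 10 counts in every library, 0.60 and 0.68 with limma on the same scales, and ranged from 0.69 to 0.80. The median of Lysfree against Differentiated (0.22) became 0.29 with library sizes alone, 0.14 and 0.15 with limma, and ranged from 0.16 to 0.26. With limma on log2(FPKM + 1), which shrinks changes of low genes by its construction, DEGs lower in Lysfree numbered 0 against Undifferentiated in place of 3 and 5 against Differentiated in place of 8. With 1 library left out, DEGs lower in Lysfree than in Undifferentiated ranged from 1 to 3, the lowest without Lysfree 3, and the cause was not tested.

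Replicate numbers did not mark pairs: deviations of same-numbered libraries correlated between -0.08 and 0.12, and not every library correlated best with its own number. With a replicate block, the counts were 25 higher and 7 lower, 22 and 5, and 15 and 11, in place of 25 and 7, 22 and 5, and 17 and 11, and Ppat and Adsl no longer passed in Lysfree against Differentiated. With 3 libraries per group an exact permutation test cannot go below p = 0.1. Genes with few counts (Nme2, Adssl1, Upp1, Tymp, Dpyd) are the least precise.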
